A study of Homo sapiens with 4 samples.

Results

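The matrix protease and inhibitor genes described here are the protein-coding genes whose symbol is MMP, ADAMTS or TIMP followed by a number. The ADAMTS-like (ADAMTSL) genes were left out. The rule uses only gene symbols in the GENCODE release 44 annotation mapped to hg19, and no peak. There were 46 such genes of 20162 protein-coding genes, namely 23 MMP, 19 ADAMTS and 4 TIMP genes. For each gene, peaks were taken that overlapped the gene body or the 5 kb on either side of it.

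The peaks mark where 2 forms of BRG1, an ATPase of the SWI/SNF chromatin remodeling complex, were found by CUT&RUN, which releases and sequences the DNA next to an antibody-bound protein. SW-13, an adrenocortical carcinoma line in which neither BRG1 nor its paralog BRM is expressed, was given a doxycycline-inducible transgene with a V5 tag. The iBRG1 cells express wild-type BRG1 and the i∆HSA cells express BRG1 with the helicase/SANT-associated (HSA) domain deleted, and the comparison asks whether this domain affects where BRG1 sits on chromatin. All 4 samples, 2 replicates per construct, had received doxycycline for 24 h and were probed with anti-V5. Both transgenes were integrated with the Sleeping Beauty transposon, and each line was an individual clone, so the construct, the clone and the library cannot be told apart. One peak list per construct was analysed, with no value per replicate, so no value below has a replicate error and no difference between the lists was tested. The lists give no read depth and no expression, and the labelled cell type could not be checked against marker genes.

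Matrix metalloproteinases (MMPs) and ADAMTS proteases are zinc-dependent enzymes, most of them secreted, that cut collagens, proteoglycans and other proteins of the extracellular matrix. The tissue inhibitors of metalloproteinases (TIMPs) block them. Several MMP genes are induced by growth factors, cytokines and phorbol esters through AP-1, the FOS and JUN transcription factors, and many of these genes sit side by side on the long arm of chromosome 11.

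In all, 24212 iBRG1 peaks and 25371 i∆HSA peaks were listed. Both counts are higher than the paper reports for its called peaks, so the lists and their sharing need not match its peak sets. Each peak carried the authors' score, an integer on a scale that they do not state, with a whole-list median of 2 for iBRG1 and 4 for i∆HSA. Scores were therefore read only within a list, and a percentile below is the place of a score among all peaks of its own list. Shared peaks are those with 1 bp or more in common with any peak of the opposite construct, and they made up 20.5% of the iBRG1 list and 19.6% of the i∆HSA list.

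Matrix protease and inhibitor genes held peaks about as often as other genes did. An iBRG1 peak lay at 21 of the 46 members (45.7%, 95% Wilson interval 32.2 to 59.8, which covers counting error only), beside 44.0% of all protein-coding genes. An i∆HSA peak lay at 24 members (52.2%, 38.1 to 65.9), beside 49.1% of all protein-coding genes. Both lists had a peak at 13 members (28.3%, 17.3 to 42.5; all genes 30.0%), and a shared peak lay at 7 members (15.2%, 7.57 to 28.2; all genes 16.2%). A promoter peak, within 1 kb of the start of any annotated transcript of the gene, was present in the iBRG1 list at 6 members (13.0%, 6.12 to 25.7; all genes 18.2%). In the i∆HSA list it was present at 9 members (19.6%, 10.7 to 33.2; all genes 20.9%). Every one of these 6 background values lay inside the interval of the members. Of the 46 genes, 8 had peaks in the iBRG1 list alone, 11 in the i∆HSA list alone and 14 in neither. Of all 20162 protein-coding genes, these counts were 2834, 3857 and 7432.

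**Figure D1:**
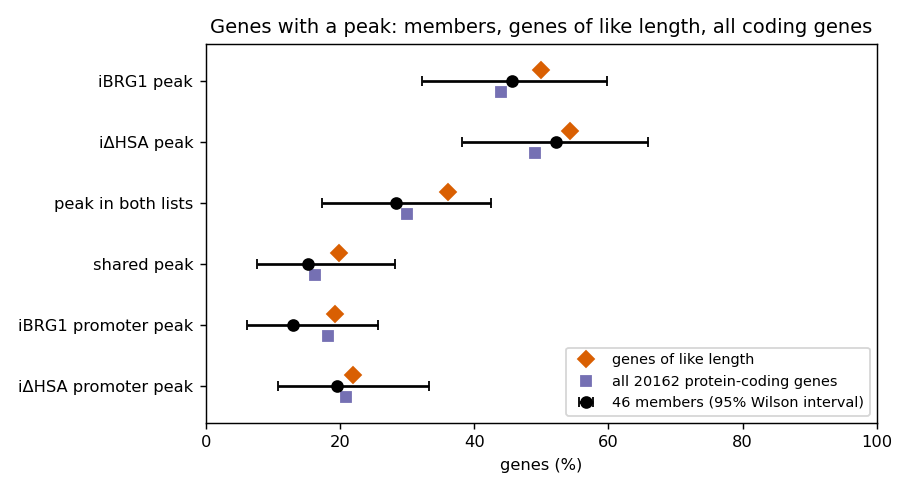
Percent of genes (x axis) with each kind of peak (y axis) for the 46 members (black, with 95% Wilson intervals for counting error), for genes of like length (orange) and for all 20162 protein-coding genes (purple). In all 6 rows the orange and purple symbols lie inside the black interval, and the orange symbol lies to the right of the black one.

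Long genes have more room for peaks, so each member was set beside the 200 protein-coding genes closest to it in length (0.907 to 1.10 times its own). Summed over the 46 members, 33 iBRG1 peaks were found where genes of like length hold 52.5 on average, a ratio of 0.629. For i∆HSA, 41 peaks were found against 53.5, a ratio of 0.767. A member had more peaks than the mean of its like-length genes in 13 cases for iBRG1 and in 15 for i∆HSA. For most members this mean is only a fraction of a peak, so having any peak exceeds it. How many other genes exceed their own mean was not counted, so these counts are not read as a deficit. The gap lay mostly in the ADAMTS genes, with 19 iBRG1 peaks against 34.5 and 23 i∆HSA peaks against 33.1. The MMP genes had 13 against 15.7 and 16 against 17.4. Split by size, the 12 members over 170 kb held 19 peaks in each list against 35.5 and 32.5, while the 34 shorter members held 14 and 22 against 17.0 and 21.0. No test was run on these sums, because the members of a gene family are not replicates.

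**Figure D2:**
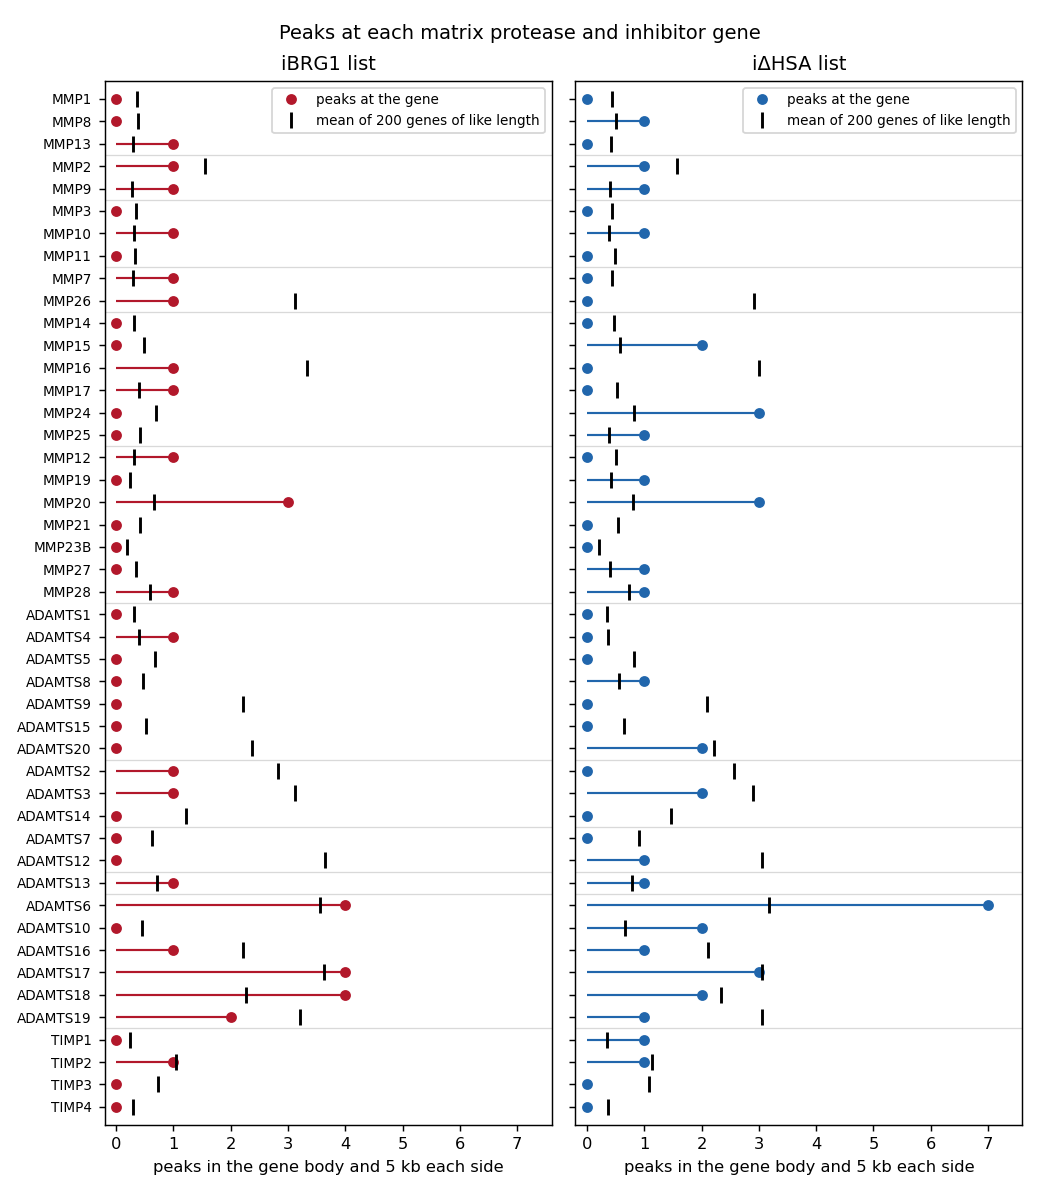
Peaks in the gene body and 5 kb on each side (x axis, count) for each of the 46 members (y axis, grouped by enzyme class with grey lines between classes), with iBRG1 at left and i∆HSA at right. Circles are the member's own count and black ticks the mean of its 200 genes of like length. ADAMTS6 reaches 7 in the i∆HSA list, and long genes such as MMP26, MMP16, ADAMTS9, ADAMTS12 and ADAMTS2 lie well to the left of their ticks.

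Peaks were closely spaced at the MMP cluster of chromosome 11, where the strongest member peak of both lists was also found. Within 0.445 Mb, from 5 kb outside MMP7 at one end to 5 kb outside MMP13 at the other (chr11:102386239-102831461), 9 MMP genes are transcribed in the same direction. This span held 10 iBRG1 peaks (22.5 per Mb) and 7 i∆HSA peaks (15.7 per Mb), where chromosome 11 as a whole held 9.87 and 7.67 per Mb. In each list 4 of these peaks were shared. The 4 shared places were introns 6 and 2 of MMP20, the start of MMP10 and the interval between MMP3 and MMP12.

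**Figure D3:**
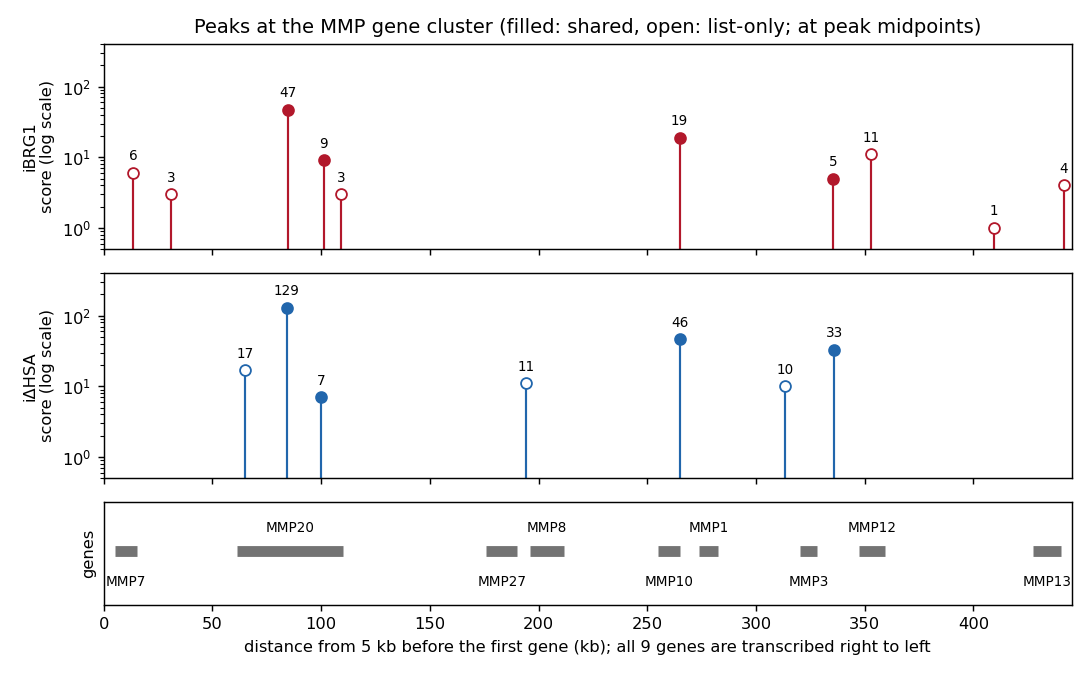
Peaks of the 2 lists along the chromosome 11 MMP cluster: distance from 5 kb before the first gene (x axis, kb), the authors' score (y axis, log scale, printed above each circle) and the 9 genes (grey bars in the bottom panel). Filled circles are shared peaks and open circles list-only peaks, placed at peak midpoints. The 4 filled places line up between the panels, and MMP20 intron 6 carries the highest score of both panels, 47 and 129.

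MMP20 encodes enamelysin, which processes enamel proteins in developing teeth. It held 3 peaks in each list, a count reached by 3% of its genes of like length in either list. Its strongest peak lay in intron 6 and had an iBRG1 score of 47 (chr11:102469952-102472312) and an i∆HSA score of 129 (chr11:102469377-102471610). Both stood at percentile 99.7, with 70 peaks of the iBRG1 list and 85 of the i∆HSA list at or above them. It was the highest-scoring member peak in both lists. The other shared place of MMP20, at intron 2, scored 9 for iBRG1 (chr11:102485353-102489304, reaching into a coding exon) and 7 for i∆HSA (chr11:102484575-102487530). List-only peaks were an iBRG1 peak of score 3 that lay 528 bp inside the gene from its start (chr11:102495038-102495535) and an i∆HSA peak of score 17 in intron 8 (chr11:102450515-102451624).

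MMP10 encodes stromelysin-2, a protease of broad substrate range. It was the single member whose main start site had a peak within 1 kb in both lists. The iBRG1 peak scored 19 (chr11:102649897-102652344, percentile 96.6) and the i∆HSA peak scored 46 (chr11:102650526-102652183, percentile 97.5), and the second lay wholly inside the first. Neighbouring MMP1, the interstitial collagenase, had no peak within 5 kb, and its nearest peaks were these same MMP10 peaks, 7788 and 7949 bp from the gene. MMP3, stromelysin-1, had none either. A shared peak stood just past the window, 5623 bp before its start for iBRG1 (chr11:102719963-102723174, score 5) and 6975 bp for i∆HSA (chr11:102721315-102723173, score 33), between MMP3 and MMP12. On the other side of MMP3, a list-only i∆HSA peak of score 10 lay 5487 bp from the gene (chr11:102698444-102701045).

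The remaining genes of the cluster had list-only peaks. MMP7, the small protease matrilysin, had an iBRG1 peak of score 6 over its start (chr11:102397990-102401797). MMP13, collagenase-3, had an iBRG1 peak of score 4 that began 454 bp before its start (chr11:102826915-102828918). MMP12, the macrophage elastase, had an iBRG1 peak of score 11 over coding exons (chr11:102738755-102739740, percentile 91.1). MMP8, the neutrophil collagenase, and MMP27 share an i∆HSA peak of score 11 that lies between them (chr11:102579030-102581937), and it was counted for both genes. At the main start site, then, the cluster had an iBRG1 peak at 4 of 9 genes (MMP7, MMP10, MMP13 and MMP20) and an i∆HSA peak at 1 (MMP10). The other 37 members had 1 and 7, and all protein-coding genes had such a peak in 11.9% and 14.5% of cases. Without the cluster, 2 members had an iBRG1 promoter peak in place of 6. With 9 genes and no replicate values, the difference between the lists was not tested.

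The sequences of 2 shared places in the cluster are shown because each holds an exact AP-1 site, TGAGTCA or its reverse complement TGACTCA, inside the stretch covered by both lists. The capitals mark that site, and both are read 5′ to 3′ on the minus strand of hg19, the strand of the genes. The MMP20 intron 6 window is chr11:102470697-102470847, from a shared stretch of 1659 bp that holds 3 such sites. The window between MMP3 and MMP12 is chr11:102722188-102722338, from a shared stretch of 1859 bp that holds 1. Such a site anywhere in a peak is common, at 41.2% of the whole iBRG1 list and 31.3% of the i∆HSA list. Among member peaks, 4 of 8 shared and 10 of 25 list-only iBRG1 peaks held one. For i∆HSA these were 3 of 8 and 9 of 32. The third sequence is the 150 bases before the MMP10 start (chr11:102651360-102651509, minus strand), which holds none of the 5 motifs listed further on.
MMP20 intron 6: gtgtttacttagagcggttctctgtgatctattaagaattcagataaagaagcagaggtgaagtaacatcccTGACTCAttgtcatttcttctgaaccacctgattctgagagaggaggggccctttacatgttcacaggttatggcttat
Between MMP3 and MMP12: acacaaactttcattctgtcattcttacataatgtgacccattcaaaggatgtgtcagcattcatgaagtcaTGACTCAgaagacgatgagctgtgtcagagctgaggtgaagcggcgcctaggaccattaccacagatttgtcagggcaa
MMP10 upstream: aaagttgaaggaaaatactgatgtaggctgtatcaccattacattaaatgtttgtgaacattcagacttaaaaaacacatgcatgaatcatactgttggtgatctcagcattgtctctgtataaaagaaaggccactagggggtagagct

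An AP-1 site lay just before the start of 7 MMP genes. In the 250 bases before the main start, TGAGTCA or TGACTCA was present at 7 of the 46 members (15.2%, 95% Wilson interval 7.57 to 28.2) and at 607 of 19881 protein-coding genes with an annotated main start (3.05%). All 7 were MMP genes (MMP1, MMP3, MMP7, MMP9, MMP12, MMP13 and MMP19). The chromosome 11 cluster had 5 of them among its 9 genes, and the other 37 members had 2. The interval takes the genes as independent, which neighbouring genes of a family are not. The sequence before MMP7, which had an iBRG1 peak over its start, is given with 25 bases on each side of the site, on the minus strand of hg19, the strand of the gene, with the site in capitals (chr11:102401514-102401570).
MMP7: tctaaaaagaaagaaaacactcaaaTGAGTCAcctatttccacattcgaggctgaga

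Of these 7 start sites, 2 (MMP7 and MMP13) had an iBRG1 peak within 1 kb and 0 had an i∆HSA peak. Across all protein-coding genes, a start site with an AP-1 site in these 250 bases had an iBRG1 peak in 11.2% of 607 cases and an i∆HSA peak in 10.2%. Start sites without one had them in 11.9% and 14.6% of 19274 cases. The 250-base sequences before the starts of MMP10 and MMP20, which did have iBRG1 peaks, held no such site. Only exact matches were counted, so words that differ from the AP-1 site by 1 base were not. A match of these letters is a description of the sequence and not a measured binding site.

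The gelatinases MMP2 and MMP9, which cut denatured collagen and basement membrane collagen, had 1 peak in each list. In MMP9 the peaks were shared and lay over coding exons, with scores of 1 for iBRG1 (chr20:44642566-44643196) and 2 for i∆HSA (chr20:44642382-44642970). These are low scores, at percentiles 15.8 and 14.6. In MMP2 the iBRG1 peak (score 1, intron 11) and the i∆HSA peak (score 3, in an intron of a longer transcript that begins upstream of the main start) were 33972 bp apart.

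The 6 membrane-type MMPs, which stay anchored at the cell surface, held 2 iBRG1 peaks against 5.64 at genes of like length and 6 i∆HSA peaks against 5.78. None of these genes had peaks in both lists. MMP24 held 3 i∆HSA peaks, in intron 1 (scores 4 and 5) and intron 5 (score 2), and 0 iBRG1 peaks, and 4.00% of its like-length genes had as many i∆HSA peaks. Its body overlaps another coding gene, MMP24OS, so the peaks cannot be assigned to either. MMP15 held an i∆HSA peak that ended 27 bp before its start (score 2, chr16:58058990-58059631) and another past its end (score 5). MMP25 held an i∆HSA peak of score 3 (chr16:3106920-3108884) that counts as a promoter peak through an internal transcript start, 10358 bp from the main start, and that also covers the start of the antisense gene MMP25-AS1. MMP16 and MMP17 each had 1 iBRG1 peak in an intron, with scores of 1 and 2. MMP14, the activator of pro-MMP2 at the cell surface, had no peak in its window, and a shared peak lay just outside it, 6049 bp away in the iBRG1 list (score 1) and 5067 bp away in the i∆HSA list (score 3).

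Among the remaining MMP genes, MMP28 (epilysin) had an iBRG1 peak of score 2 in intron 1 and an i∆HSA peak of score 2 over its start (chr17:34122542-34124265), with 5788 bp between them. MMP19 had an i∆HSA peak of score 4 over a coding exon. MMP26, whose annotated body of 287648 bp spans 10 olfactory receptor genes, had 1 iBRG1 peak of score 1 where genes of like length hold 3.12. MMP11, MMP21 and MMP23B had no peak in either list. For MMP23B the value is uncertain, since it has a near-identical copy, MMP23A, and reads from the copies may not have been placed.

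The ADAMTS genes are given by class, beside genes of like length. The classes were chosen with earlier results of these data known, and differences between them were not tested. The 7 proteoglycanases, which cut aggrecan and versican, held 1 iBRG1 peak against 6.97 and 3 i∆HSA peaks against 7.05. ADAMTS9 is 172347 bp long and had no peak, where its like-length genes hold 2.22 and 2.09, and its nearest peaks were 430289 and 791583 bp away. ADAMTS1, ADAMTS5 and ADAMTS15 had none either. ADAMTS4 had an iBRG1 peak of score 2 that began 927 bp before its start. ADAMTS8 had an i∆HSA peak of score 3 upstream, 3032 bp from its start. ADAMTS20 had 2 i∆HSA peaks, in introns 15 and 3, with scores of 2 and 3.

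The 3 procollagen N-propeptidases, which trim the ends of fibrillar procollagens, held 2 peaks in each list against 7.17 and 6.92. ADAMTS2 had 1 iBRG1 peak of score 1 and ADAMTS14 had none. ADAMTS3 had a shared place in intron 3, with scores of 1 for iBRG1 (chr4:73321812-73322524) and 17 for i∆HSA (chr4:73321126-73323245). Its second i∆HSA peak, also in intron 3, scored 31 (chr4:73395474-73397008, percentile 95.6) and had a GC content of 10.8%, the lowest of all member peaks. Peaks under 25% GC made up 0.888% of the iBRG1 list and 4.74% of the i∆HSA list, and the members held 2 and 3 of them. The middle of the ADAMTS3 peak is printed to show the composition (150 bases, chr4:73396167-73396316, minus strand, 1.33% GC). Whether reads were placed uniquely in such sequence was not tested.
ADAMTS3 intron 3: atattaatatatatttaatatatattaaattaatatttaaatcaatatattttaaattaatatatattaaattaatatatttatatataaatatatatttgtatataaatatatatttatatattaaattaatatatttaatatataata

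ADAMTS7 and ADAMTS12, which cut cartilage oligomeric matrix protein, held 0 iBRG1 peaks against 4.27 and 1 i∆HSA peak against 3.97. That peak lay in intron 2 of ADAMTS12 with a score of 3 and a GC content of 22.8%. ADAMTS7 has pseudogene copies, so its count of 0 is uncertain. ADAMTS13, the protease of von Willebrand factor, had a shared peak at its 3′ end with scores of 5 for iBRG1 (chr9:136324790-136326285) and 6 for i∆HSA (chr9:136324394-136326359). Both peaks covered the promoter of the next gene, CACFD1, and the iBRG1 peak lay 266 bp past the end of ADAMTS13.

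The 6 other ADAMTS genes held most of the ADAMTS peaks, 15 of 19 for iBRG1 and 16 of 23 for i∆HSA, close to the 15.3 and 14.4 of genes of like length. ADAMTS6, a homolog of ADAMTS10, had 4 iBRG1 peaks, as did ADAMTS17 and ADAMTS18, and 7 i∆HSA peaks, the most of any member, against 3.56 and 3.17. As many i∆HSA peaks were found at 11% of its like-length genes. Its shared peak in intron 15 scored 3 for iBRG1 (chr5:64525410-64527329, 24.2% GC) and 53 for i∆HSA (chr5:64525826-64527368, 22.2% GC), percentiles 57.8 and 97.9. Its i∆HSA promoter peak lay upstream of the main start, ending 271 bp before it, with a score of 22 (chr5:64778018-64780118, percentile 93.2). Its iBRG1 promoter peak, score 9 (chr5:64493336-64495799), was at an internal transcript start in intron 20, 283180 bp into the gene. The lists thus marked different starts of ADAMTS6.

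ADAMTS17, mutated in a Weill-Marchesani-like syndrome, had 4 iBRG1 peaks and 3 i∆HSA peaks against 3.63 and 3.06. The shared peak in intron 18 scored 5 for iBRG1 (chr15:100582940-100585932) and 2 for i∆HSA (chr15:100582879-100583941). An i∆HSA peak of score 2 covered the main start (chr15:100881870-100882667), and another of score 12 lay in intron 8. The other 3 iBRG1 peaks, in introns 15 and 8, scored 0 or 1. AP-1 sites were present in the shared stretches of ADAMTS6 and ADAMTS17, and a window around 1 site of each is given (minus strand, the strand of both genes, site in capitals). The windows are chr5:64526892-64527042 and chr15:100583231-100583381. Such sites anywhere in a peak are common in the whole lists, as given above. None of these shared peaks had an AP-1 site in the 200 bp at its centre. The middle 300 bases of the ADAMTS6 stretch are an AT-rich repeat without an AP-1 site. Whether reads were placed uniquely there was not tested.
ADAMTS6 intron 15: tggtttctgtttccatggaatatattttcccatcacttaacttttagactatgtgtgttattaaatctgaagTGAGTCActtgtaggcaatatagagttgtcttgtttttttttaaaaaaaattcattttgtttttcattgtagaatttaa
ADAMTS17 intron 18: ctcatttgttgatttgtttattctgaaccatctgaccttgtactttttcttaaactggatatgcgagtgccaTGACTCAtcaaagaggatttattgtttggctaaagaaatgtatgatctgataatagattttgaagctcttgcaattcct

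ADAMTS18 had 4 iBRG1 peaks with scores of 1 to 3 and 2 i∆HSA peaks with scores of 8 and 9, against 2.27 and 2.34, and none of them was shared. The closest pair was 8757 bp apart. ADAMTS19 had 2 iBRG1 peaks of score 1 and an i∆HSA peak of score 4, and the nearest 2 were 6851 bp apart, in the same intron. ADAMTS16 had an iBRG1 peak of score 3 over a coding exon and an i∆HSA peak of score 2 674 bp inside the gene from its start (chr5:5141117-5143051). ADAMTS10, the gene of a recessive Weill-Marchesani syndrome, had 2 i∆HSA peaks and 0 iBRG1 peaks. The first of these, score 2, lay 309 bp inside the gene from its main start (chr19:8674075-8675291), and the other, score 3, lay at an internal transcript start (chr19:8656316-8659870).

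**Figure D4:**
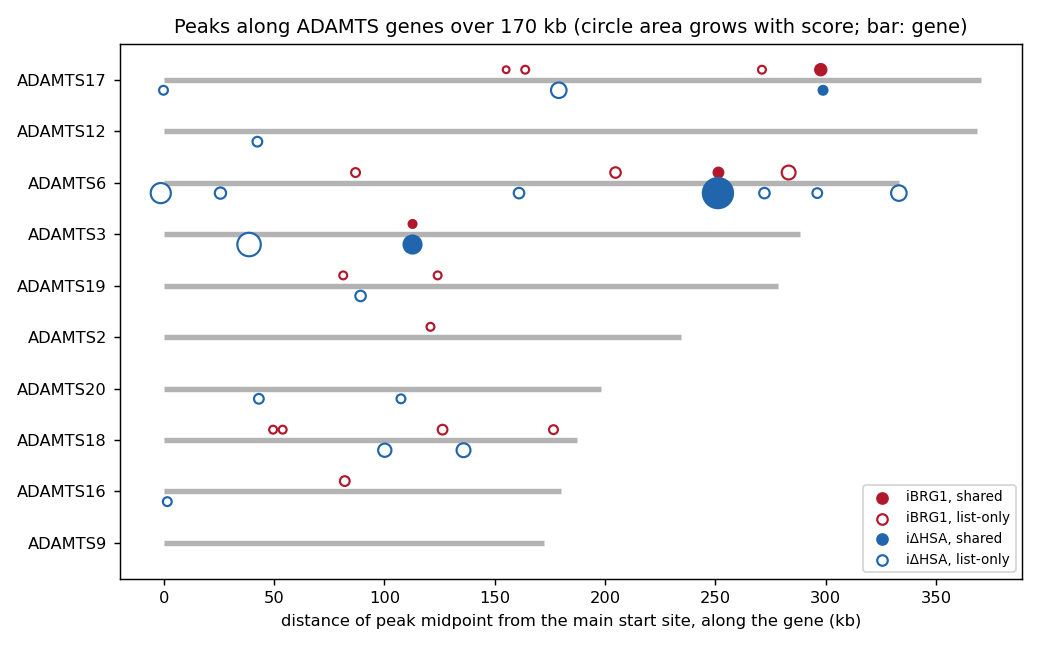
Peaks along the 10 ADAMTS genes over 170 kb: distance of the peak midpoint from the main start site (x axis, kb) for each gene (y axis, grey bars to scale), with iBRG1 above the bar in red and i∆HSA below it in blue. Filled circles are shared peaks, open circles are list-only, and the circle area grows with the authors' score. Shared places are seen in ADAMTS17, ADAMTS6 and ADAMTS3, and ADAMTS9 has no circle.

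The inhibitors had few peaks, 1 for iBRG1 against 2.31 and 2 for i∆HSA against 2.94. TIMP1 had an i∆HSA peak of score 3 that covered its start (chrX:47439430-47442071) and 0 iBRG1 peaks. TIMP2, which also takes part in the activation of pro-MMP2, had an iBRG1 peak in intron 3 and an i∆HSA peak in intron 1, both of score 3 and 19380 bp apart. TIMP3 and TIMP4 had none, with the nearest peaks 242446 and 34557 bp away. TIMP1, TIMP3 and TIMP4 overlap the synapsin genes SYN1, SYN3 and SYN2.

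Seen over all members, sharing was about as common as in the whole lists. Of the 33 distinct iBRG1 peaks 8 were shared (24.2%, 95% Wilson interval 12.8 to 41.0), and of the 40 distinct i∆HSA peaks 8 were shared (20.0%, 10.5 to 34.8). From list-only peaks to the nearest peak of the other list, the median gap was 33050 bp for iBRG1 and 39525 bp for i∆HSA. The smallest gaps were 5788 and 4753 bp. This gap was not measured for the whole lists, so it is not read as a trait of the members. Shared peaks stood higher in score, at a median percentile of 75.6 against 39.8 for list-only peaks in the iBRG1 list and 82.8 against 44.2 in the i∆HSA list. The same order was seen over the whole lists, with medians of 5 for shared and 2 for list-only iBRG1 peaks and of 8 and 3 for i∆HSA peaks. Only 8 of the 33 iBRG1 peaks (24.2%, whole list 27.2%) and 17 of the 40 i∆HSA peaks (42.5%, whole list 41.1%) had a score of at least 5, the minimum named in the study's methods. They lay at 7 and 11 genes.

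**Figure D5:**
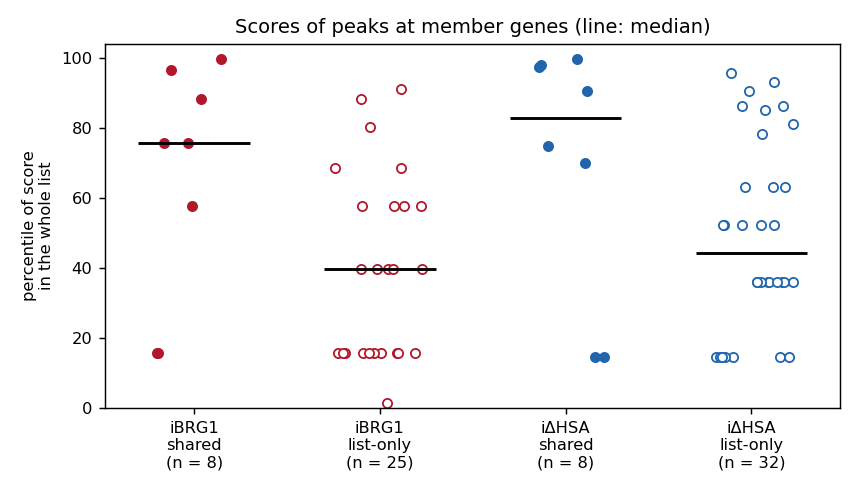
Percentile of the authors' score within the whole list (y axis) for each distinct peak at a member gene, by list and sharing (x axis), with a line at the median. Shared peaks have medians of 75.6 and 82.8 and list-only peaks 39.8 and 44.2, and the groups overlap in both lists.

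Introns held more member peaks than any other place. Of 33 iBRG1 gene and peak pairs 22 were intronic, 6 at a promoter, 4 over a coding exon and 1 in the downstream flank. Of 41 i∆HSA pairs 22 were intronic, 10 at a promoter, 3 over a coding exon, 2 in a UTR, 2 in the upstream and 2 in the downstream flank. The first intron held 3 of the 22 intronic peaks in each list. Of all pairs, 18 of 33 for iBRG1 and 12 of 41 for i∆HSA had a midpoint over 50 kb from the main start. These places and distances were not counted for other genes, so they describe the members and show no difference from other genes. At the main start site itself, a peak within 1 kb was found at 5 members for iBRG1 (10.9%, 4.73 to 23.0; all genes 11.9%) and at 8 for i∆HSA (17.4%, 9.09 to 30.7; all genes 14.5%).

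Motif letters were counted on both strands in the 200 bp at the centre of each peak. AP-1 sites were present in 4 iBRG1 peaks (12.1% of 33, 4.82 to 27.3) and in 4 i∆HSA peaks (10.0% of 40, 3.96 to 23.1), beside 8.85% and 6.14% of the whole lists. They lay at MMP12, the start of MMP20, MMP17 and ADAMTS18 for iBRG1, and at MMP20 introns 6 and 8, between MMP27 and MMP8 and in ADAMTS6 intron 22 for i∆HSA, so 5 of the 8 were in the chromosome 11 cluster. Without the cluster genes the shares were 7.69% and 2.86%. The TEAD motif GGAATG was present in 6 iBRG1 peaks (18.2%, whole list 12.1%) and 5 i∆HSA peaks (12.5%, whole list 10.1%). The ETS motif AGGAAG was in 5 and 6 peaks (15.2% and 15.0%, whole lists 17.3% and 15.0%), and the RUNX motif TGTGGT in 3 and 5 (9.09% and 12.5%, whole lists 12.5% and 12.2%). The cyclic AMP response element TGACGTCA was in none of them, at whole-list shares of 0.116% and 0.173%. For all 5 motifs the whole-list share lay inside the interval of the members. In the 250 bases before the main start, AP-1 was present at the 7 MMP genes above, TEAD at 4 members, ETS at 11, RUNX at 5 and the cyclic AMP response element at 0. All protein-coding genes had the last 4 at 9.82%, 27.9%, 8.80% and 2.40%.

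A list of 20 genes that act with these proteases was read in the same way. It holds 14 activators and regulators of matrix proteolysis, such as the plasminogen system, and 6 substrates of ADAMTS proteases. Peaks in both lists were found at 9 (45.0%, 95% Wilson interval 25.8 to 65.8; all genes 30.0%), in the iBRG1 list alone at 2, in the i∆HSA list alone at 2 and in neither at 7. For all 20162 protein-coding genes the last 3 counts were 2834, 3857 and 7432. Their summed peaks were 24 for iBRG1 against 16.1 at genes of like length and 25 for i∆HSA against 18.4, ratios of 1.49 and 1.36. This list was written by hand with earlier results of these data known, and its ratios were not tested against those of the members. A shared peak lay at 4 of them (20.0%, 8.07 to 41.6; all genes 16.2%), of which 3 are described. RECK, a membrane-anchored inhibitor of MMPs, had 2 iBRG1 peaks that were shared, and the one inside the gene scored 3 for iBRG1 and 6 for i∆HSA. VWF, the substrate of ADAMTS13, had 5 peaks in each list and 2 shared places, in intron 15 (scores 8 and 4) and intron 6 (5 and 23). NCAN, the proteoglycan neurocan, had a shared peak past its end with scores of 3 and 2. ADAM17, a membrane protease that sheds growth factors and cytokines, had promoter peaks in both lists at different starts, with scores of 10 for iBRG1 and 5 for i∆HSA.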

How the data were processed

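Per the submitters' processing notes and the study's methods, the authors trimmed reads with Cutadapt, aligned them with Bowtie2, removed duplicates with Picard, handled files with SAMtools and called peaks with MACS2 2.2, on hg19. They removed peaks of negative controls and named a minimum score of 5. The deposited lists hold peak positions and a score, a whole number set by the authors whose scale is not stated. The deposited lists hold values below 5 in the score column, and which filter made them is not known. At scores of at least 5 they hold 6575 iBRG1 and 10440 i∆HSA peaks. Whether replicates were pooled is not stated, and a list without counts gives no depth. The 2 samples per construct were grouped by title, and vehicle-treated and control samples were not analysed here.

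GENCODE release 44 mapped to GRCh37 gave gene bodies, transcript starts and main starts (MANE Select or canonical), and 0 peaks ended past a chromosome. A peak counted for a gene with 1 bp of overlap. No test was run, because each construct has 1 list. Wilson intervals (95%) cover counting error only. Sequences were read from the GRCh37 genome. The overlap functions were tested on simulated data. All members are accounted for, and full values were given for those with a promoter peak or a shared peak and for the 5 with the highest scores or the most peaks in each list (ties kept). Some neighbouring and related genes and some sequences are not reported here. The members, classes and related genes were chosen with earlier results of these data known. Alternatives changed the score minimum, window, overlap, promoter, motif window and like-length group. Python 3.11.15, numpy 2.4.6, pandas 2.3.3, scipy 1.17.1, pysam 0.24.0 and matplotlib 3.10.9 were used.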

Additional observations from a re-analysis of the deposited data

How the results depend on the processing

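The score minimum moved the counts most. With scores of at least 5, a peak lay at 7 members for iBRG1, 11 for i∆HSA and 5 for both, a shared peak at 3, and a promoter peak at 3 and 2. The peaks at members fell to 8 and 17, the shared part of iBRG1 peaks came to 50.0%, and 5 members exceeded their like-length mean for iBRG1. With scores at or above the list median, an i∆HSA peak lay at 13 members, peaks of both lists at 6, a shared peak at 4 and an i∆HSA promoter peak at 2, with 20 iBRG1 and 22 i∆HSA peaks. With the peak midpoint inside the promoter window, promoter peaks lay at 3 and 5 members. Each of these alternatives counts fewer peaks by construction. Under them, members with a peak were not set beside all protein-coding genes, so that comparison was made for the full lists only. Without the chromosome 11 cluster, an iBRG1 promoter peak lay at 2 members, AP-1 was present in 2.86% of i∆HSA peaks, and 8 members exceeded their like-length mean for iBRG1. These 3 values, and that setting for the other promoter, AP-1 and like-length results, were added after seeing the data. The other values over all members stayed within 1.5 times the main count, or within its interval for a share. Peak counts of single genes, 64 in all, moved further. With scores of at least 5, 33 of them fell below these bounds, and 22 did so at or above the list median. No flank put 7 below them, and a 10 kb flank put 3 above. The further alternatives, each run for the results it bears on, were no flank, a 10 kb flank, 50% reciprocal overlap, a 3 kb promoter, the outermost start, a 500 bp motif window and the 100 nearest genes. The main start site alone and peaks of at least 25% GC, both chosen after seeing the data, also stayed within those bounds for results over all members. At single genes, the 25% GC limit lowered 3 of the 64 counts beyond them. These were the i∆HSA count of ADAMTS12 (1 to 0), the iBRG1 count of ADAMTS3 (1 to 0) and the i∆HSA count of ADAMTS3 (2 to 1). No flank left MMP13, ADAMTS4 and ADAMTS13 without an iBRG1 peak, and MMP8, MMP15, MMP27 and ADAMTS8 without an i∆HSA peak. A 10 kb flank added MMP1, MMP3 and MMP14 to both lists and MMP24 to the iBRG1 list. No paired analysis was possible because neither list carries a value per replicate, and for the same reason no replicate could be left out. Depth is unknown, so a gene without a peak had none detected in these lists.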
